A study of Arabidopsis thaliana with 8 samples.

Results

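AT5G62720 and AT3G47980 are the pair of Arabidopsis thaliana genes grouped here as HPP family integral membrane proteins of plastid nitrite transport. They were chosen by their gene annotation, with the nitrate differences of these same arrays already known, so their signals with and without nitrate are given as a description with no test. The annotation table links 3 probe sets to them, of 22746 on the array and of 2 genes among the 13286 that the table names with a matched record. A probe set is a group of short probes read as 1 signal. AT5G62720 has 1, 247443_at, and AT3G47980 has 2, called here its first (252396_at) and its second (252397_at). The table holds only the identifiers of both genes, so the family and its role come from general knowledge and not from these data.

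Plants take up nitrate, reduce it to nitrite in the cytosol and reduce the nitrite to ammonium inside the plastid. Nitrite is toxic when it accumulates, and it has to cross the plastid envelope to reach its reductase. HPP proteins, named after a conserved His-Pro-Pro stretch, are found in cyanobacteria and in plastids and were described as carriers of nitrite.

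The study measured the RNA of roots and of shoots of wild-type Col-0, the common laboratory accession. Seedlings aged 10 days, grown in shaken liquid culture under constant light, were given potassium nitrate, or potassium chloride (KCl) as the control, at 250 µM for 20 min. Each organ and treatment together made 1 of the 4 groups, called root KCl, root nitrate, shoot KCl and shoot nitrate, with 2 samples and 1 ATH1 array per sample. Nothing in the labels says whether the samples of a group were separate cultures, so SDs and p-values cover only the spread between these arrays, which may be technical, and the 8 arrays limit the precision.

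Signals are linear intensities scaled alike on every array, where the median probe set lay between 42.3 and 49.9. The organ labels matched their markers: the 2 measured shoot markers, RCA and PRK of carbon fixation, summed to 3690 to 5722 on the shoot arrays and 148 to 215 on the root arrays, and the 4 measured root markers to 2533 to 3021 on the root arrays and 63.8 to 119 on the shoot arrays. The shoot arrays of a group differed more from each other than the root arrays did. The SD over probe sets of the log2 difference between them was 0.50 in KCl and 0.47 in nitrate for shoots, against 0.30 and 0.29 for roots.

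AT5G62720 was near the bottom of the array in roots without nitrate and had a signal in the other 3 groups. In root KCl its signal was 3.87 on the first array and 3.35 on the second, and in root nitrate it was 61.0 and 51.5. In shoot KCl the signal was 83.5 and 86.4, and in shoot nitrate it was 137 and 169. No array of one group reached into the range of another, and both nitrate arrays lay above both KCl arrays in each organ. How many of all probe sets separate in this way with 2 arrays per group was not counted, so nothing is read from it. As means, roots went from 3.61 ± 0.37 to 56.3 ± 6.70 and shoots from 84.9 ± 2.06 to 153 ± 22.6 (SD, n = 2 each).

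The order of the groups for AT5G62720 was therefore root KCl, root nitrate, shoot KCl and shoot nitrate. Each step exceeded the larger SD of the groups it joins on the log2(signal + 16) scale, the smallest being root nitrate to shoot KCl with 0.48 against an SD of 0.13. Roots with nitrate stayed below shoots without it on every array. In rank, which also depends on how strongly each probe set binds its target, 13.5% and 12.6% of probe sets were lower than AT5G62720 on the root KCl arrays, and 58.8% and 54.9% on the root nitrate arrays. On the shoot arrays the rank was 65.9% and 64.8% in KCl and 77.8% and 81.4% in nitrate.

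The first probe set of AT3G47980 was high in a single group. Its signal was 1.39 and 1.91 in root KCl and 113 and 95.6 in root nitrate. In shoots it was 1.16 and 0.67 in KCl and 2.00 and 2.71 in nitrate. The 6 arrays other than root nitrate all placed it low, with 2.33% to 10.1% of probe sets below it, against 73.5% and 70.0% on the root nitrate arrays. The means were 1.65 ± 0.37 and 104 ± 12.4 in roots and 0.91 ± 0.35 and 2.36 ± 0.50 in shoots (SD, n = 2 each). Among the 3 low groups the log2 steps were 0.06 and 0.06, against SDs of 0.03 and 0.04, at signals too low for that order to be read.

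The second probe set of AT3G47980 was highest in the same group but was not flat in shoots. Its signal was 26.3 and 13.4 in root KCl and 108 and 112 in root nitrate. In shoots it was 5.76 and 6.16 in KCl and 34.1 and 30.2 in nitrate. The nitrate arrays lay above the KCl arrays in both organs, and no group overlapped another, which is again only a description. The means were 19.9 ± 9.10 and 110.5 ± 2.86 in roots and 5.96 ± 0.28 and 32.1 ± 2.72 in shoots (SD, n = 2 each). Root KCl and shoot nitrate were the closest neighbours in the order, with a log2 step of 0.45 against an SD of 0.37 for the root KCl arrays, which differed by 0.52 from each other.

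**Figure D1:**
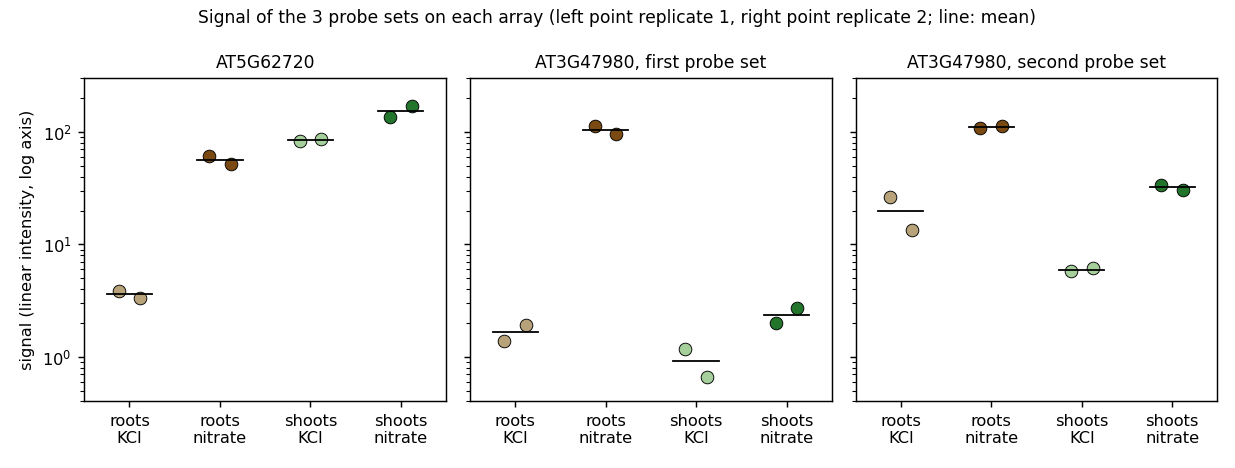
Signal on each of the 8 arrays (linear intensity on a log axis) of AT5G62720 and of the first and second probe sets of AT3G47980, with the mean of each group as a line. AT5G62720 is lowest in root KCl (3.87 and 3.35) and highest in shoot nitrate, while both probe sets of AT3G47980 are highest in root nitrate.

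**Figure D2:**
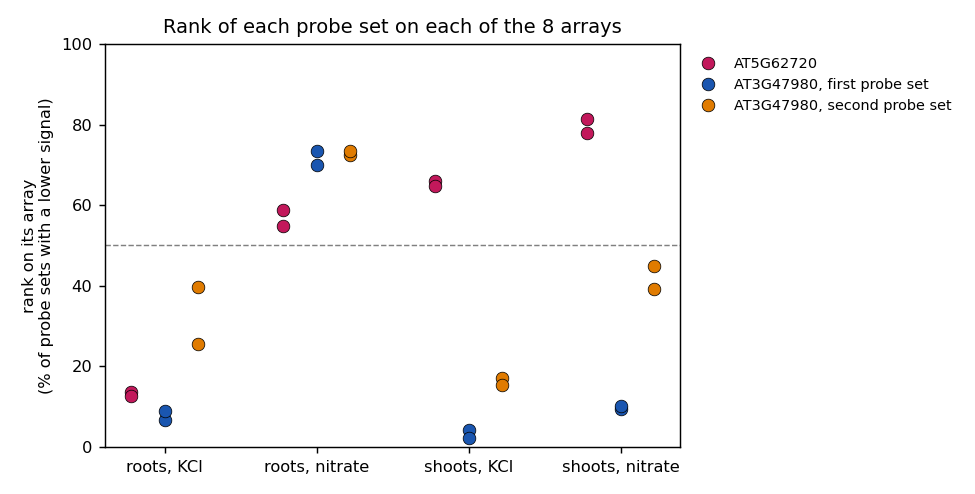
Rank of the 3 probe sets on each array, as the percent of probe sets with a lower signal, with the array's midpoint dashed. AT5G62720 lies below the midpoint in root KCl alone, and the first probe set of AT3G47980 lies between 2.33% and 10.1% everywhere but in root nitrate.

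Nitrate minus KCl in roots asked which transcripts change within 20 min. On the log2(signal + 16) scale, which understates changes of low signals, the difference was 1.88 for AT5G62720, with 1.95 between the arrays numbered 1 and 1.803 between those numbered 2. It was 2.77 for the first probe set of AT3G47980 (2.89 and 2.64) and 1.84 for the second (1.557 and 2.127). The pooled SD between arrays of a group was 0.10, 0.11 and 0.26 in the same order. Among the differences of all 22746 probe sets these ranked 79th, 24th and 80th from the highest. The first probe set of AT3G47980 had a mean signal of 27.3 over the 8 arrays, under the filter value of 33.3, and was not in the fit. Both of the 2 member probe sets in the fit were among the 141 called higher with nitrate in roots by limma (adjusted p under 0.05), where 1.03% of all tested were; the members were picked with this comparison in view, so nothing is read from it.

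Nitrate minus KCl in shoots gave 0.74 for AT5G62720 on the log2 scale (0.63 between the arrays numbered 1 and 0.86 between those numbered 2, pooled SD 0.14). The second probe set of AT3G47980 gave 1.13 (1.202 and 1.06, pooled SD 0.06) and the first 0.12 (0.07 and 0.17, pooled SD 0.03). Neither member probe set in the fit was among the 13 called higher in shoots, 0.0953% of those tested. The members were picked with this comparison in view too, so nothing is read from that either. No ratio of signals is given, since KCl means as low as 3.61 for AT5G62720 in roots and 5.96 for the second probe set of AT3G47980 in shoots have no known distance from background.

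Root minus shoot nitrate difference was 1.14 for AT5G62720, 2.65 for the first probe set of AT3G47980 and 0.71 for the second on the log2(signal + 16) scale. For the second probe set this gap depended on the pseudocount: it was 0.24 with a pseudocount of 1 and 0.60 with 64. For AT5G62720 it was 2.79 with a pseudocount of 1 and 0.29 with 64, and for the first probe set 4.50 and 1.32, so the direction held and the size did not.

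The probe sets of AT3G47980 gave unlike nitrate differences in shoots, 1.13 for the second and 0.12 for the first. Their signal levels cannot be set against each other, and the pseudocount shrinks the difference of the first, whose shoot signals were 0.67 to 2.71. Of the 139 genes that the annotation names with exactly 2 probe sets, AT3G47980 had the largest gap between its probe sets for the shoot difference (1.01 on the log2 scale, median 0.19) and the second largest for the root difference (0.92, median 0.17). This comparison was chosen after its values were seen. AT3G47980 was also picked with its nitrate differences known and the other genes were not, so its place among them is not independent of that choice. The sequences of the probes were not used here, and whether the probe sets read different transcripts or other genes was not tested.

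**Figure D3:**
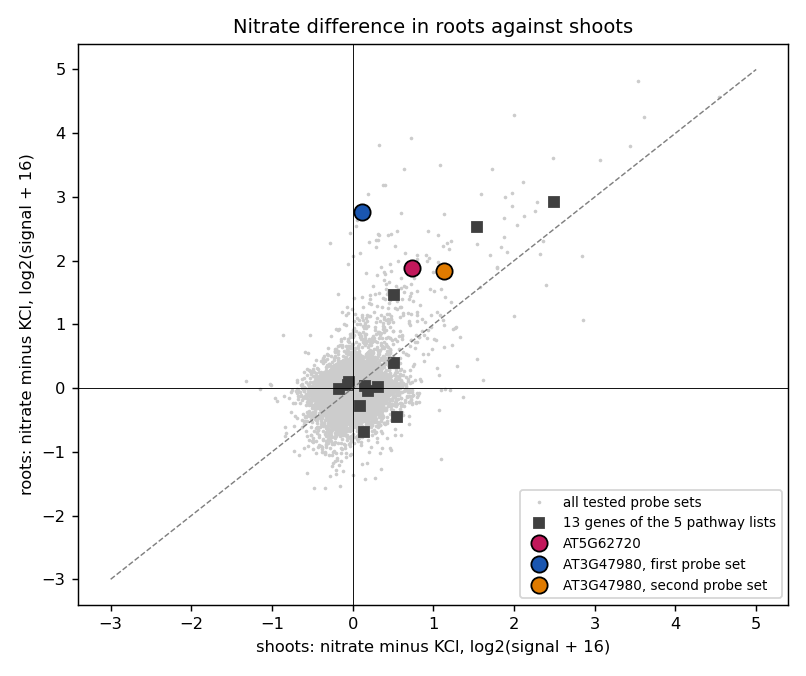
Log2 difference of nitrate minus KCl in roots (vertical) against shoots (horizontal) for all 13647 tested probe sets, the 13 pathway genes and the 3 member probe sets, with equal differences dashed. The first probe set of AT3G47980 lies at 2.77 in roots and 0.12 in shoots, and the other members lie closer to the dashed line.

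Roots against shoots, over the mean of both treatments, was tested on the assumption that the members were chosen by their nitrate differences. The sources do not say which values chose them, and if the organ levels were used too, the p-values below are not independent of that choice. The mean over both treatments also holds the nitrate arrays, so a rise in roots raises it. Roots were lower than shoots for AT5G62720, with mean signals of 29.9 and 119 over 4 arrays each, by a log2 value of -1.79 ± 0.13 (SE; limma, adjusted p = 6.19e-06). AT3G47980 went the other way on its second probe set, with 65.2 in roots and 19.1 in shoots. The log2 value was 1.04 ± 0.16 (SE; limma, adjusted p = 0.000643). Of its group means only root nitrate (110.5) was above the filter value of 33.3. The others were 19.9 in root KCl, 5.96 in shoot KCl and 32.1 in shoot nitrate. Its entry into the fit and its organ difference therefore both draw on the root nitrate arrays. When low signals were not filtered out, the value was 1.04 ± 0.16 (SE; limma, adjusted p = 0.00162). Organ differences were common, since 26.8% of tested probe sets were called higher in roots and 24.1% higher in shoots. With no filter on low signals the first probe set of AT3G47980 was also higher in roots, by 1.39 ± 0.12 (SE; limma, adjusted p = 5.39e-05). That value rests on the root nitrate arrays, whose rise was known when the members were chosen, so it adds no independent support. In whole organs, fewer cells with a transcript and less of it per cell cannot be told apart.

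Within each treatment the organ differences had these signs too, but their sizes differed. AT5G62720 was at -2.36 in KCl and -1.23 in nitrate (roots minus shoots, log2 scale, described without a test). The second probe set of AT3G47980 was at 0.68 in KCl and 1.39 in nitrate. The first was at 0.06 in KCl, where both organs had signals below 2, and at 2.71 in nitrate, so its organ difference lay in the nitrate arrays.

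AT5G62720 was set beside the other transcripts that rose with nitrate in roots, a description chosen after its values were seen. A rise in roots itself moves this organ difference towards roots, so how these transcripts divide is not independent of how they were chosen. How far the choice sets that division was not tested. Of the 141 called, 88 were higher in roots and 14, AT5G62720 among them, were higher in shoots by limma (adjusted p under 0.05), and 39 did not pass. Their median organ difference was 0.76 on the log2 scale. For 4 of the 141 the organ difference was at or below that of AT5G62720, itself included, and for 6 both root nitrate arrays were below both shoot KCl arrays.

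**Figure D4:**
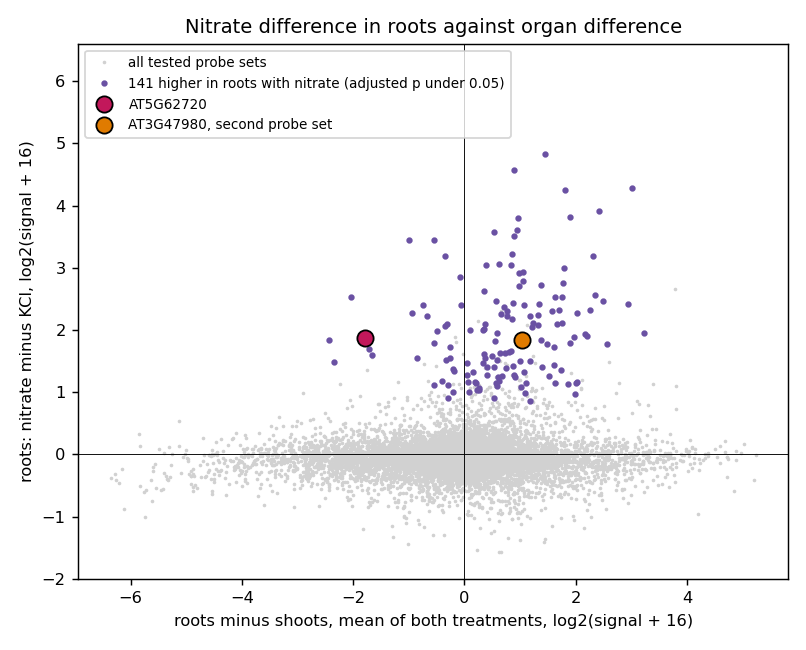
Log2 difference of nitrate minus KCl in roots (vertical) against the difference of roots minus shoots over both treatments (horizontal) for 13647 tested probe sets, with the 141 called higher in roots with nitrate in purple. AT5G62720 (-1.79) lies on the shoot side and the second probe set of AT3G47980 (1.04) on the root side.

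Transcripts with profiles most like those of the members were named by the Pearson correlation of log2(signal + 16) over the 8 arrays, among 7221 tested probe sets of 1 other gene. These arrays share 4 groups, so high values are common and are given with no p. For AT5G62720 they were AT3G59080 (0.98), AT3G27180 (0.97), AT1G61740 (0.96), AT1G73600 (0.96) and AT4G25620 (0.96). All 5 had their lowest mean in root KCl and their highest in shoot nitrate, from 26.6 ± 0.01 to 129 ± 4.76 for AT1G73600 and from 88.5 ± 16.6 to 616 ± 144 for AT1G61740 (SD, n = 2 each). Of the 5 named here, 1 was among those called higher in roots with nitrate, where 1.03% of all tested were, and nothing is read from that count.

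With the mean of each organ subtracted, which leaves the nitrate differences, the closest to AT5G62720 were WNK7 (AT1G49160, 0.998), AT3G29760 (0.989), AT4G09620 (0.989), AT4G32950 (0.984) and AT5G39590 (0.983). All 5 were called higher in roots with nitrate, where 1.03% of all tested were. That count follows largely from the measure, so nothing is read from it. WNK7, which encodes a WNK family protein kinase, went from 21.2 ± 1.18 to 230.3 ± 12.01 in roots and from 9.19 ± 3.26 to 39.0 ± 7.89 in shoots (SD, n = 2 each). It was also among the 5 most like the second probe set of AT3G47980 over the 8 arrays (0.978).

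For the first probe set of AT3G47980 the closest over the 8 arrays were AT2G48080 (0.997), AT4G32950 (0.982), AT5G51830 (0.981), AT1G59970 (0.977) and AT1G08040 (0.975). AT2G48080 had the same shape, with means of 47.2 ± 5.09 and 872 ± 29.9 in roots and 41.5 ± 10.4 and 55.7 ± 7.88 in shoots (SD, n = 2 each). After subtracting the organ means they were AT2G48080 (0.995), AT1G80380 (0.994), AT4G26130 (0.990), AT4G02920 (0.985) and AT2G46620 (0.982). For the second probe set they were AT1G64190 (0.985), UBC18 (0.984), AT1G13000 (0.979), WNK7 and HYH (0.964) over the 8 arrays. After subtracting the organ means they were AT3G07350 (0.985), AT1G70780 (0.982), AT1G13000 (0.980), AT1G64190 (0.979) and UBC18 (0.979). The probe sets of AT3G47980 shared none of the genes named for them, 9 for the first and 7 for the second. Between the 2 members the correlation over the 8 arrays was 0.03 for the first probe set and 0.07 for the second, and 0.94 and 0.96 after subtracting the organ means. The latter values reflect the nitrate differences, which were known when the members were chosen, so nothing is read from them.

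The other steps of nitrite handling could be set beside the members only in part. Of 79 genes in 5 lists, the annotation names a probe set for 13, and all 13 were tested. The lists were drawn up with earlier results of these arrays known, so counts over them are no independent evidence. The genes of nitrate reductase, nitrite reductase and the main nitrate uptake carriers are not among them and were not analysed here by name. Of the 13, 3 were called higher with nitrate in roots and none lower by limma, where 1.03% and 0.103% of all tested were, and 4 had an unadjusted p under 0.05. Their median log2 difference was 0.03, against -0.03 over all tested. In shoots 1 was called higher and none lower, against 0.0953% and 0% of all tested (by limma none fell, with 111 at an unadjusted p under 0.05), and the medians were 0.18 and -0.01.

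Transport of nitrate and nitrite was represented by 4 of 22 genes, and 0 were called in either organ with nitrate (limma, with 1 at an unadjusted p under 0.05 in roots and 0 in shoots). AT1G68570 (NPF3.1), a carrier of the NRT1/PTR family whose relative in cucumber was described as a plastid nitrite carrier, had signals of 54.9 and 31.2 in root KCl and 69.7 and 28.6 in root nitrate. Its log2 difference was 0.10 ± 0.35 in roots and -0.04 ± 0.35 in shoots (SE), and these intervals are wide. It was higher in shoots, at 179 ± 46.2 in KCl against 43.1 ± 16.7 in roots (SD, n = 2 each), with a log2 value of -1.66 ± 0.25 for roots minus shoots (SE; limma, adjusted p = 0.000542). AT2G26690 (NPF6.2) and AT3G21670 (NPF6.4), of the same family, were also higher in shoots, as 24.1% of all tested were, with -3.52 and -1.28. NRT2.5, a high-affinity nitrate carrier, had 0.58 ± 0.46 and did not pass.

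Reduction and ammonium assimilation was represented by 1 of 18 genes, AT2G43760, listed here for synthesis of the molybdenum cofactor that nitrate reductase needs. It rose in roots from 118 ± 2.04 to 357 ± 61.6 (SD, n = 2 each; limma, adjusted p = 0.0134). The call was lost with any of the 4 root arrays left out, at an adjusted p of 0.139 and 0.154 without the first and second KCl array and of 0.21 and 0.0631 without the first and second nitrate array. In shoots its log2 difference was 0.51 ± 0.21 (SE) and it did not pass.

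Siroheme, the iron cofactor of nitrite reductase, was represented by 4 of 9 genes of its synthesis. None of SIRB, HEMA2, GSA1 and HEMB1 was called with nitrate in either organ (limma; 0 at an unadjusted p under 0.05), and their log2 differences ran from -0.05 to 0.03 in roots and from -0.17 to 0.32 in shoots. SIRB, which encodes the chelatase that inserts the iron, had signals of 123 and 119 in root KCl and 121 and 112 in root nitrate. Of these 4, 3 were called higher in shoots, where 24.1% of all tested were: HEMB1 (-1.35 for roots minus shoots, log2 scale), SIRB (-0.65) and GSA1 (-0.62).

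Supply of reductant through the oxidative pentose phosphate pathway and ferredoxin was represented by 3 of 12 genes, all listed here as 6-phosphogluconate dehydrogenases. This enzyme acts both inside and outside plastids, and the 3 were not separated by compartment. AT5G41670 and AT1G64190 rose in roots, by 2.91 ± 0.19 and 2.53 ± 0.26 on the log2 scale (SE), and AT3G02360 had 0.06 ± 0.19. In shoots AT5G41670 rose, by 2.49 ± 0.19 (SE; limma, adjusted p = 0.00303), and AT1G64190, with 1.54 ± 0.26, did not pass. All 3 were called higher in roots than in shoots, by 0.80 to 1.63 on the log2 scale, where 26.8% of all tested were. Without the first root nitrate array AT1G64190 missed the threshold (limma, adjusted p = 0.0526), which with AT2G43760 left 1 of the 13 called in roots.

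Among 18 other carriers of the plastid envelope only AT5G17630 was measured by name. Its log2 difference with nitrate was 0.39 ± 0.28 in roots and 0.51 ± 0.28 in shoots (SE) and passed in neither. It was higher in roots by 0.54 ± 0.20 (SE; limma, adjusted p = 0.0473), a call lost under 9 of 14 alternatives. Over the 5 lists, 4 of 13 were called higher in roots and 6 higher in shoots, against 26.8% and 24.1% of all tested, and 3 did not pass.

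**Figure D5:**
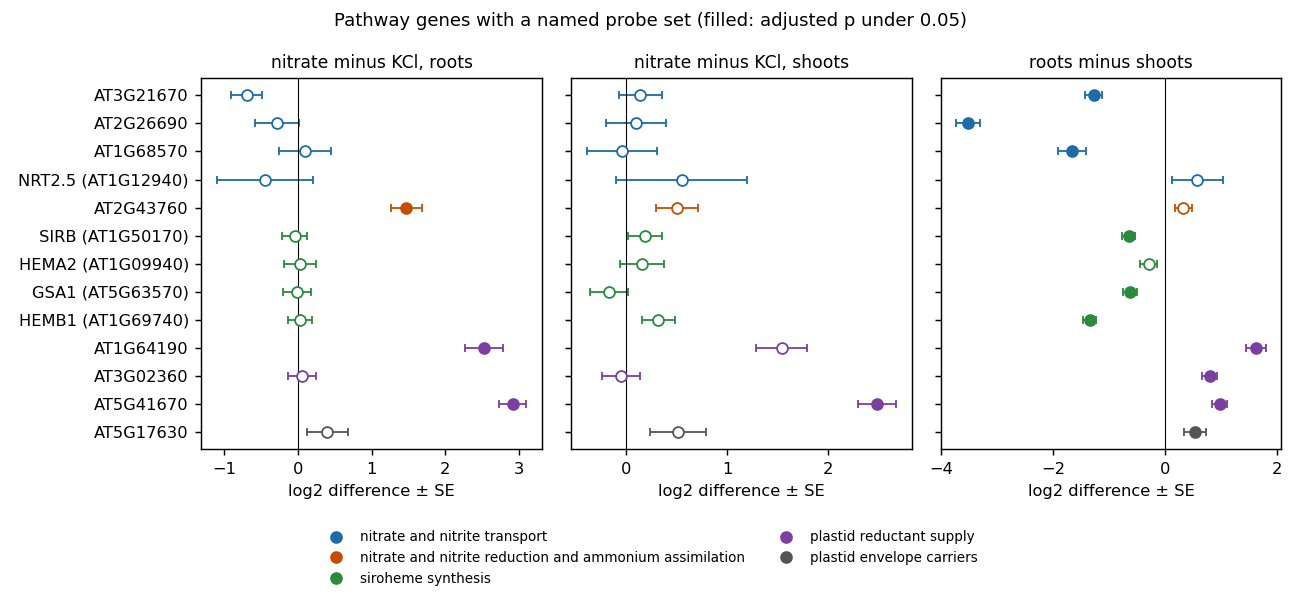
Log2 difference ± SE of the 13 pathway genes with a named probe set, for nitrate minus KCl in roots and in shoots and for roots minus shoots over both treatments; filled points have an adjusted p under 0.05. AT2G43760, AT1G64190 and AT5G41670 are the filled points in roots, and AT5G41670 alone is filled in shoots.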

How the data were processed

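The authors deposited 1 signal intensity per probe set for each of 8 one-colour arrays. MAS5 and GCOS made them, per the submitters' processing notes; no source used here gives the scaling target or any filter. Without its lowest and highest 2%, each array had a mean of 100.01 over 22810 probe sets. Samples were grouped by their titles.

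Leaving out 64 controls, probe sets with a mean signal over the 8 arrays above the 40th percentile (33.3) were tested, 13647 in all, as log2(signal + 16) with limma 3.58.1 in R 4.3.3. The 4 groups were fitted together with a trend in eBayes, two-sided, with Benjamini-Hochberg adjustment over all tested probe sets and a threshold of 0.05. The fit was tested on simulated data. Names came from the platform's probe table, updated by gene identifier to TAIR10.1 records; 13513 probe sets have 1 gene listed (13436 of them matched a record), 503 have several and 8730 have none here. Figures used matplotlib 3.10.9.

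The members, lists and tests were chosen with earlier results of these data known. Named were all member probe sets, every list gene where at most 6 were tested, and the 5 most correlated probe sets per member and measure. Alternatives were pseudocounts of 1 and 64, no filter, quantile normalization, eBayes without a trend, replicate blocks and each array left out.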

Additional observations from a re-analysis of the deposited data

Results flagged for a closer look

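AT3G21670 (NPF6.4) was lower with nitrate on both root arrays and higher on both shoot arrays, so that all samples of one organ moved against those of the other. Its signals were 85.4 and 93.5 in root KCl, 63.4 and 37.3 in root nitrate, 179 and 171 in shoot KCl and 207 and 183 in shoot nitrate. The root minus shoot difference was -0.84 on the log2 scale and did not pass the test of the difference itself (limma, adjusted p = 0.9998). Neither organ passed by itself, with -0.70 ± 0.21 in roots and 0.14 ± 0.21 in shoots (SE; limma, adjusted p = 0.369 and 0.9999). The shoot value is smaller than its SE.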

How the results depend on the processing

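The organ differences of AT5G62720 and of the second probe set of AT3G47980 passed under all 14 alternatives run for them, at -2.82 to -0.99 and 0.56 to 1.63. That of the second probe set draws on the root nitrate arrays, as described above, so its passing adds no independent support. No member difference changed sign under any alternative, but sizes followed the pseudocount. At pseudocounts of 1 and 64 the root difference was 3.63 and 0.83 for AT5G62720, 5.32 and 1.36 for the first probe set of AT3G47980 and 2.49 and 1.06 for the second. The shoot difference of AT5G62720 was 0.54 at 64, and it was 0.82 and 0.032 for the first probe set of AT3G47980 and 2.25 and 0.46 for the second. Root minus shoot was 2.79 and 0.29 for AT5G62720, 4.50 and 1.32 for the first probe set and 0.24 and 0.60 for the second. With 1 array left out it ran from 1.00 to 1.27 for AT5G62720, from 2.54 to 2.75 for the first probe set and from 0.45 to 0.97 for the second, where the lowest and highest of the second came without the second and the first root KCl array.

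Labels do not say what the replicate number marks. The deviations of same-numbered samples correlated at 0.44 in roots and 0.67 in shoots. Between root and shoot samples of the same number they correlated at 0.30 in KCl and 0.29 in nitrate. With 1 replicate block over both organs, 264 probe sets were called in roots and 36 in shoots, and with one within each organ 517 and 82, against 155 and 13. The 13 pathway genes then had 2 called in shoots with either block. With the block over both organs, 12 of the 13 passed for roots against shoots, 6 in each direction, with NRT2.5 (limma, adjusted p = 0.0403) and AT2G43760 (limma, adjusted p = 0.0213) added to those higher in roots. Over all 13647 tested probe sets that block called 4458 higher in roots and 3665 higher in shoots, against 3661 and 3291 without it. Leaving out 1 array gave 32 to 180 calls in roots and 7 to 25 in shoots (8 and 25 without the first and second shoot KCl array), 1 to 3 pathway genes in roots and 1 to 2 in shoots, where the second came without the second shoot nitrate array. The cause of these changes was not tested. No detection calls were used, so signals of a few units have no known distance from background.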
